A study of Homo sapiens with 24 samples.

Results

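The genes described here are 9 embryonic or germline genes linked to the transcription factor DUX4: MBD3L1, MBD3L2, MBD3L3, MBD3L4, MBD3L5, ZSCAN4, LEUTX, TRIM43 and KHDC1L. They were measured on expression arrays in ES8 cells, a human Ewing sarcoma line. The members were selected on measured values of these same arrays: MBD3L3, MBD3L4 and MBD3L5 had fallen strongly in a CRISPR/Cas9 SLFN11 knockout made from ES8 cells, and the relatives and other DUX4-linked genes were added by name. Each of the 9 genes had 1 probe set, of 17709 probe sets that carried a gene symbol and 17687 genes in all. Differences between the lines are therefore given for the members as a description, with no test.

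Parental ES8 cells and the knockout derivative, labelled ES8-1F2, were kept in DMEM/F12 with fetal bovine serum and received either 0 Gy or 2 Gy of gamma radiation. RNA was taken 4 h or 24 h later, which makes 8 groups of 3 arrays and 12 arrays per line. The knockout is represented by 1 derivative line, so the loss of SLFN11 and any other property of that line cannot be told apart. The titles number the replicates but do not say that they were separate cultures. The p-values therefore reflect the spread among these arrays alone, and part or all of it may be technical.

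MBD3L genes encode proteins related to MBD2 and MBD3, which are subunits of the NuRD chromatin complex, but they lack the domain that binds methylated DNA. They are known from the male germline and the early embryo. MBD3L2 to MBD3L5 are near-identical copies in one cluster, whereas MBD3L1 is a more distant relative. DUX4, a double-homeobox factor encoded in the D4Z4 repeats, is switched on briefly in the cleavage-stage embryo and is kept silent in most adult tissues. Its known targets include the MBD3L cluster, ZSCAN4, a zinc-finger gene of the cleavage stage, LEUTX, a homeobox gene of the same stage, TRIM43, a tripartite-motif gene, and KHDC1L, a gene with a KH-type domain.

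The promoters of the cluster are shown because they make plain how alike the copies are in that stretch, and which DUX4-type letters they carry. The sequences come from RefSeq for build GRCh38.p14 and are written 5′ to 3′ in the direction of the gene. Capitals mark the core letters of the DUX4 site, read here on the opposite strand, and the TATAAA that follows it.

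MBD3L5, chr19:7030412-7030517, plus strand: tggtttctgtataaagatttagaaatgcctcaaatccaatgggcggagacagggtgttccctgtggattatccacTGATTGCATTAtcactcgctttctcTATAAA
MBD3L2, chr19:7049179-7049280, plus strand: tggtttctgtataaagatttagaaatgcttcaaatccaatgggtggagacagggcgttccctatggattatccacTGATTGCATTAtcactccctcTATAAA

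MBD3L4 (chr19:7040239-7040344) and MBD3L3 (chr19:7058700-7058805), both on the minus strand, hold exactly the letters shown for MBD3L5. MBD3L2B (chr19:7021491-7021592, minus strand), which has no value of its own here, holds exactly those shown for MBD3L2. Over the windows shown, the MBD3L5 and MBD3L2 types matched at 98 of 106 aligned columns, or 92.5%, with 4 mismatches and 4 gaps. Over the 263 to 299 bases of promoter that could be aligned, MBD3L3, MBD3L4 and MBD3L5 were 100% identical, and each matched MBD3L2 at 87.1% to 87.7%. The windows shown end upstream of the start, so their likeness does not show what an array probe reads. Transcript and probe sequences were not compared here, and whether a probe set reads more than 1 copy was not tested. Because near-identical copies may share signal, the 4 probe sets are described side by side and not as separate measurements of 4 genes.

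The core searched for was TAANNNAATCA on both strands. It was present in the promoters of MBD3L2, MBD3L2B, MBD3L3, MBD3L4 and MBD3L5, and in 312 of the 35116 promoters of 300 bases in the table, or 0.888%. TATAAA, which also occurs a second time upstream in each window, was found in 4049 promoters, or 11.5%. LEUTX held the core in 1 of its promoters, and no match to these letters was found in the promoter windows of MBD3L1, ZSCAN4 and KHDC1L. Among 51 genes of a list of other DUX4 targets and cleavage-stage genes with a promoter entry, 11 held the core, or 21.6%, against 303 of 27305 genes, or 1.11%. These 11 include MBD3L2B, a copy in the cluster, and members of shared families such as TRIM48, TRIM49B and TRIM49D1. They are therefore not separate observations. A match describes letters only.

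Background was taken for each array as the 95th percentile of its 612 negative controls. It ranged from 3.46 to 3.81 (log2), and 14031 genes exceeded it on at least 3 arrays. SLFN11, the targeted gene, read 8.03 to 8.63 in parental arrays and 6.33 to 7.07 in knockout arrays, in the direction of the labels. Arrays of one group correlated at 0.985 to 0.993 over all genes, and no 2 arrays were identical. Precision is set by the number of arrays. For a typical gene, the 95% interval of a 2-group difference reached 0.315 log2 units to either side. The arrays of replicate 2 in parental cells at 2 Gy had the narrowest signal distributions of the 24, with an interquartile range of 3.28 for the 4 h array and 3.34 for the 24 h array, where the widest array had 3.62. Of 7 Ewing sarcoma markers with a value, 7 were above background on every array, and their summed linear signal spanned 1935 to 2225 in parental and 1927 to 2203 in knockout arrays. Summed signals of 6 testis germ cell markers spanned 61.7 to 75.8 and 63.4 to 76.8, and 5 of the 6 were never above background, among them DDX4 and DAZL. For epithelial markers the sums were 92.0 to 128.7 and 91.6 to 114.5, for blood 53.3 to 70.9 and 46.4 to 59.8, for endothelium 63.7 to 92.2 and 62.1 to 73.2, and for skeletal muscle 132 to 160.8 and 117.5 to 163. The steady Ewing sum covers opposite differences of single markers. PRKCB, a protein kinase, was called higher in the knockout line in all 4 comparisons (1.05, 1.06, 1.11 and 0.84, SE 0.15), as was CD99, a surface protein (0.40, 0.28, 0.23 and 0.20, SE 0.07). PPP1R1A, a phosphatase inhibitor (-2.07, -2.33, -1.95 and -2.46, SE 0.14), and STEAP1, a metalloreductase (-0.56, -0.65, -0.48 and -0.63, SE 0.13), were called lower in all 4. These values are in the order 0 Gy at 4 h, 0 Gy at 24 h, 2 Gy at 4 h and 2 Gy at 24 h, and their part in the members' difference was not tested. None of the measured markers of the 5 other cell types was called between the lines in any of the 4 comparisons. In bulk RNA, fewer expressing cells and less RNA per cell cannot be told apart.

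All 4 probe sets of the MBD3L cluster were bright in every parental array and lower in every knockout array, where those of MBD3L3, MBD3L4 and MBD3L5 lay close to background. In parental cells without irradiation, MBD3L3 read 8.17, 8.15 and 8.47 (log2 signal) at 4 h and 8.63, 8.53 and 8.76 at 24 h. After 2 Gy it read 7.95, 8.12 and 8.44 at 4 h and 8.94, 8.99 and 9.18 at 24 h. In the knockout line it read 4.78, 4.07 and 4.02 at 0 Gy and 4 h, 4.31, 4.19 and 4.36 at 0 Gy and 24 h, 4.76, 4.09 and 4.27 at 2 Gy and 4 h, and 4.00, 4.51 and 4.08 at 2 Gy and 24 h. The lines did not overlap: the lowest parental array lay at 7.95 and the highest knockout array at 4.78. MBD3L3 exceeded background on 24 of 24 arrays, in the knockout line by a median of 0.57 log2 units against 4.81 in parental cells.

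MBD3L4 had nearly the same profile. Its parental values were 7.98, 7.94 and 8.27 at 0 Gy and 4 h, 8.44, 8.35 and 8.56 at 0 Gy and 24 h, 7.77, 7.93 and 8.25 at 2 Gy and 4 h, and 8.74, 8.80 and 8.99 at 2 Gy and 24 h. Its knockout values were 4.10, 3.63 and 4.07, then 3.97, 4.13 and 4.22, then 4.45, 3.67 and 4.48, and last 3.46, 4.28 and 3.39, in the same order of groups. Of the 12 knockout arrays 8 were above background, 2, 3, 2 and 1 of the 3 in that order of groups. Its values in the knockout line are therefore partly at the floor of the assay, and differences from them there are small or uncertain.

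MBD3L5 read 8.04, 8.17 and 8.33 in parental cells at 0 Gy and 4 h, 8.52, 8.40 and 8.76 at 0 Gy and 24 h, 7.62, 8.25 and 8.24 at 2 Gy and 4 h, and 8.84, 9.06 and 9.02 at 2 Gy and 24 h. In the knockout line, in that order of groups, it read 4.71, 4.24 and 3.91, then 4.27, 4.27 and 4.57, then 4.32, 4.34 and 4.56, and last 4.15, 4.37 and 4.55. It was above background on 24 of 24 arrays. The parental array of replicate 1 at 2 Gy and 4 h, at 7.62, was the lowest of the parental arrays and still far above the highest knockout array.

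MBD3L2, the copy with the other promoter type, showed a smaller gap between the lines. In parental cells it read 6.63, 6.72 and 6.81 at 0 Gy and 4 h, 6.62, 7.05 and 7.41 at 0 Gy and 24 h, 6.64, 6.93 and 6.96 at 2 Gy and 4 h, and 7.25, 7.66 and 7.61 at 2 Gy and 24 h. The knockout arrays read 4.39, 4.64 and 4.84, then 5.08, 4.59 and 5.15, then 5.25, 5.25 and 4.75, and last 4.64, 4.97 and 4.78, in that order of groups. Here too the lines were fully apart, between 6.62 and 5.25, and all 24 arrays exceeded background. In the knockout line MBD3L2 stayed a median of 1.25 log2 units above background.

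**Figure D1:**
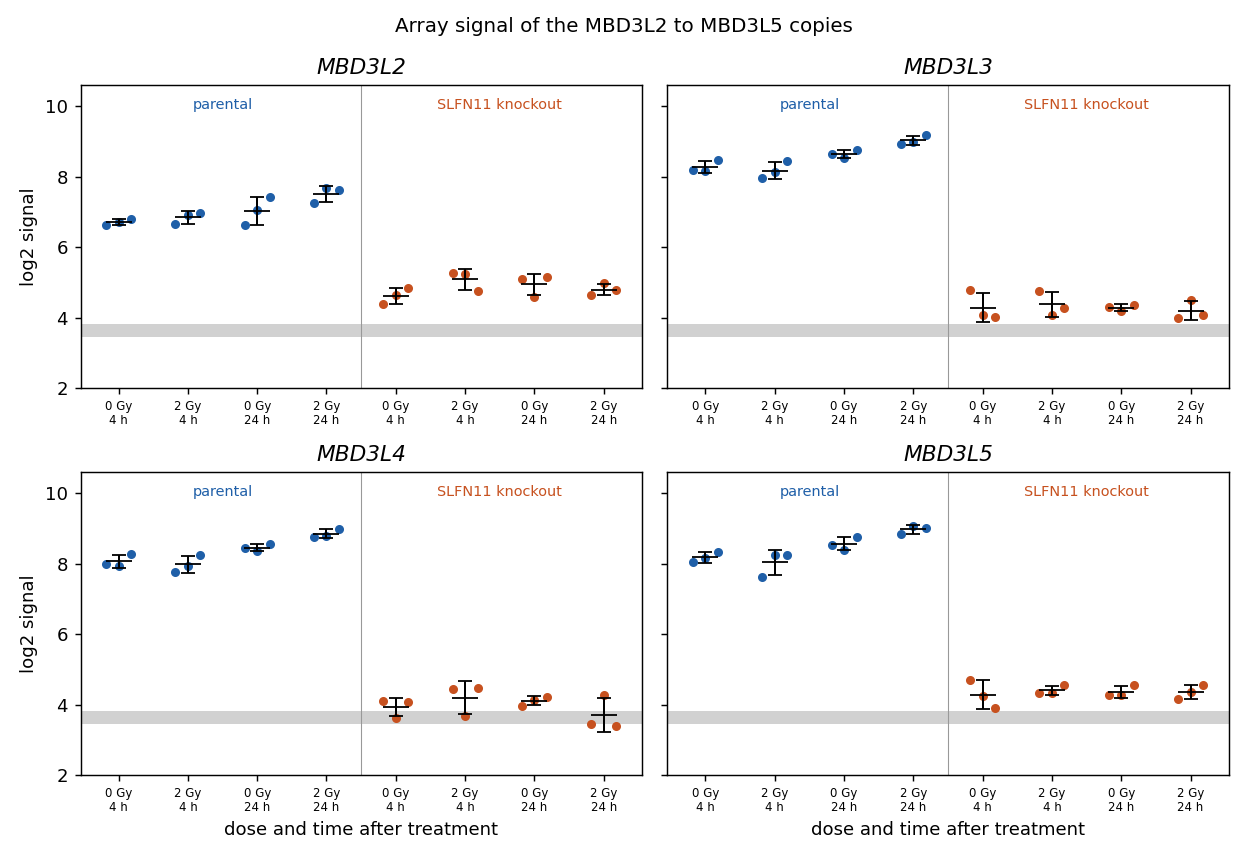
Log2 array signal (vertical axis) of MBD3L2, MBD3L3, MBD3L4 and MBD3L5 in the 8 groups of line, dose and time; points are single arrays, bars are the mean ± SD of 3 arrays, and the grey band spans the background levels of 3.46 to 3.81. Every parental array lies above every knockout array in each panel, and the parental groups at 24 h after 2 Gy lie highest.

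In groups, MBD3L3 averaged 9.04 ± 0.13 (SD, n = 3 here and below) in parental cells 24 h after 2 Gy, 8.64 ± 0.11 at 24 h without irradiation, 8.26 ± 0.18 at 4 h without irradiation and 8.17 ± 0.25 at 4 h after 2 Gy. The arrays of the first, the second and the third of these groups did not overlap, while those of the last pair did. The 4 knockout groups averaged 4.20 to 4.37, and all neighbours among them overlapped. MBD3L4 (8.84 ± 0.13, 8.45 ± 0.10, 8.06 ± 0.18 and 7.98 ± 0.24) and MBD3L5 (8.97 ± 0.12, 8.56 ± 0.18, 8.18 ± 0.15 and 8.04 ± 0.36) followed the same order in parental cells. MBD3L2 also stood highest 24 h after 2 Gy, at 7.51 ± 0.23, but each of its parental groups overlapped the next.

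As a description of the values that chose these genes, MBD3L3 was lower in the knockout line by 15.7-fold at 0 Gy and 4 h, 20.4-fold at 0 Gy and 24 h, 13.9-fold at 2 Gy and 4 h and 28.6-fold at 2 Gy and 24 h. The log2 differences, knockout minus parental, were -3.98, -4.35, -3.80 and -4.84, each with a standard error of 0.18. For MBD3L4 they were -4.13, -4.34, -3.78 and -5.13 (SE 0.20), the last against a knockout group with 1 of 3 arrays above background, so its exact size is uncertain. For MBD3L5 the differences were -3.89, -4.19, -3.63 and -4.61 (SE 0.17). MBD3L2 differed by -2.10, -2.09, -1.76 and -2.71 (SE 0.18), or 3.38- to 6.55-fold. The size was smallest at 4 h after 2 Gy and largest at 24 h after 2 Gy for all 4 probe sets. Among all genes the median difference lay between -0.02 and 0.00, and 95% of genes differed by less than 0.69 in either direction. The share of all genes called lower in these 4 comparisons was 5.5%, 5.09%, 5.13% and 5.68%, and the share called higher was 6.27%, 6.47%, 6.87% and 6.29%, where called means a limma p below 0.05 after Benjamini-Hochberg adjustment across the 17687 genes.

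In parental cells the copies moved together from array to array. After each group's mean was subtracted, MBD3L3 and MBD3L4 correlated at r = 0.999 over the 12 parental arrays, and the offset between their readings varied only from 0.17 to 0.21 log2 units. MBD3L5 correlated with MBD3L3 at 0.77 and with MBD3L4 at 0.74, and MBD3L2 with the other 3 at 0.50 to 0.67. In the knockout line, near background, the MBD3L3 and MBD3L4 correlation was 0.66 and those of MBD3L2 were -0.32 to 0.03. MBD3L5 correlated there with MBD3L3 at 0.54 and with MBD3L4 at 0.17. These points share arrays and normalization, and the copies may share probes, so the correlations describe the probe sets.

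Irradiation and time were not the stated ground for choosing the genes, and they were tested within each line. The arrays are those whose line differences chose the genes, so these tests are not fully separate from that choice. From 4 h to 24 h after 2 Gy, parental cells rose in MBD3L3 by 0.87 log2 units (SE 0.18, 1.82-fold, limma adjusted p = 0.011), in MBD3L4 by 0.86 (SE 0.20, 1.82-fold, limma adjusted p = 0.026) and in MBD3L5 by 0.93 (SE 0.17, 1.91-fold, limma adjusted p = 0.0031). In each of these 3, all 3 arrays at 24 h lay above all 3 at 4 h. MBD3L2 differed by 0.67 (SE 0.18), also without overlap, and did not pass (limma adjusted p = 0.093). These 3 of 9 members compare with 0.645% of all genes called higher, although the 3 are near-identical copies and not separate observations. The other 5 members were not called.

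The calls rest on few arrays, and that of MBD3L4 was also lost without the intensity trend (0.86, limma adjusted p = 0.10). Without the parental array of replicate 1 at 4 h after 2 Gy, which held the lowest value of each of the 3 genes, the differences were 0.76, 0.76 and 0.72 for MBD3L3, MBD3L4 and MBD3L5, and none was called (limma adjusted p = 0.13, 0.19 and 0.080). Without the array of replicate 3 at 24 h, MBD3L5 alone was called, at 0.91 (limma adjusted p = 0.023), beside 0.79 for both MBD3L3 and MBD3L4. The same held without both arrays of narrow signal range, at 0.99 (limma adjusted p = 0.025), 0.87 and 0.86 in turn. Over all alternatives the adjusted p ran from 0.00025 to 0.13 for MBD3L3, from 0.0019 to 0.19 for MBD3L4, whose call was lost on leaving out any of 5 of the 6 arrays compared (all but replicate 3 at 4 h), and from 2.4e-05 to 0.080 for MBD3L5. All differences stayed positive. MBD3L2 was called with array weights (0.77, limma adjusted p = 0.0073), with the replicate block (0.67, limma adjusted p = 0.026) and with only the compared arrays in the fit (0.67, limma adjusted p = 0.047), over a range up to 0.43.

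Without irradiation the same genes differed less between 24 h and 4 h in parental cells. The differences were 0.37 for MBD3L3, 0.39 for MBD3L4, 0.38 for MBD3L5 and 0.31 for MBD3L2, and none was called in limma (adjusted p = 1.00 for each). For MBD3L3, MBD3L4 and MBD3L5 the arrays at 24 h again lay above all those at 4 h. In this comparison 0% of all genes were called, while 830 genes had an unadjusted p below 0.05, MBD3L3 and MBD3L5 among them. At 2 Gy against 0 Gy, parental cells at 24 h differed by 0.40, 0.39 and 0.41 for MBD3L3, MBD3L4 and MBD3L5, again without overlap, and by 0.48 for MBD3L2. None was called (limma adjusted p = 0.66, 0.74, 0.61 and 0.53), beside 0.0678% of all genes. At 4 h the same 4 differences were -0.09, -0.08, -0.14 and 0.12, and none was called, beside 0.226% of all genes.

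These comparisons share arrays, so the step from 4 h to 24 h at 2 Gy is not independent of the others. Whether it was larger at 2 Gy than at 0 Gy in parental cells was tested with a contrast added after the values were seen. The difference of the steps was 0.49 for MBD3L3 (95% interval -0.02 to 1.01), 0.47 for MBD3L4 (-0.10 to 1.04), 0.55 for MBD3L5 (0.06 to 1.04) and 0.36 for MBD3L2 (-0.17 to 0.89). None was called in limma (adjusted p from 0.95 to 1.00), beside 0.0735% of all genes, so a dependence of the step on dose was not shown.

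In the knockout line no member was called in any of 4 comparisons of dose or time. From 4 h to 24 h after 2 Gy, MBD3L3 differed by -0.18, MBD3L4 by -0.49, MBD3L5 by -0.05 and MBD3L2 by -0.29, beside 0.0452% of all genes called. Without irradiation the same step was 0.00, 0.18, 0.08 and 0.32, and at 2 Gy against 0 Gy the cells at 4 h differed by 0.09, 0.27, 0.12 and 0.46 and those at 24 h by -0.09, -0.40, -0.01 and -0.14. In these 3 comparisons 0% of all genes were called, and 1215, 583 and 736 genes had an unadjusted p below 0.05, with 0, 2 and 0 of the 9 members among them. MBD3L3, MBD3L4 and MBD3L5 lie near background in this line, so small changes in them were not detectable. MBD3L2, which stays above background there, had the difference of 0.46 at an unadjusted p of 0.016 and did not pass (limma adjusted p = 1.00).

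**Figure D2:**
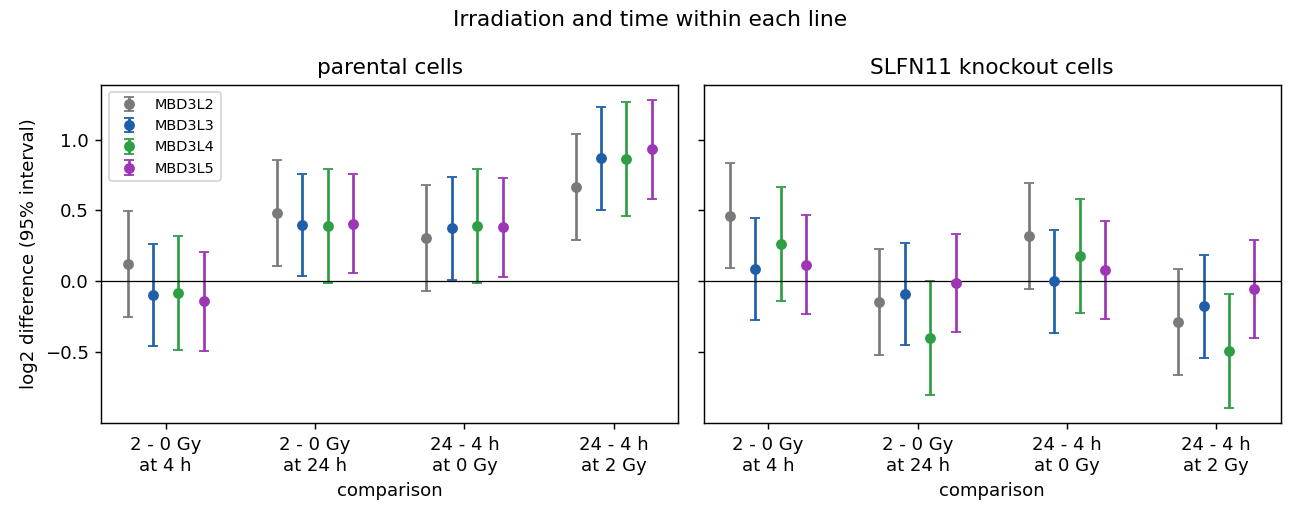
Log2 difference (vertical axis) with its 95% interval for MBD3L2, MBD3L3, MBD3L4 and MBD3L5, for 2 Gy minus 0 Gy and for 24 h minus 4 h, in parental cells (left) and knockout cells (right), from limma with 3 arrays per group. The step from 4 h to 24 h after 2 Gy in parental cells lies between 0.67 and 0.93, while in the knockout line the same step lies between -0.49 and -0.05.

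The step from 4 h to 24 h after 2 Gy can also be set against the same step in parental cells. Knockout minus parental, it was -1.04 for MBD3L3, -1.35 for MBD3L4, -0.98 for MBD3L5 and -0.95 for MBD3L2. Each of these values is the line difference at 24 h after 2 Gy less that at 4 h, and line differences chose the genes, so they are a description with no test. The low signal of MBD3L3, MBD3L4 and MBD3L5 in the knockout line also limits any step there. On the same terms, the lines' difference in the 2 Gy response at 24 h was -0.49, -0.79 and -0.42 for MBD3L3, MBD3L4 and MBD3L5 and -0.62 for MBD3L2. At 4 h it had the opposite sign, at 0.18, 0.35, 0.26 and 0.34 in the same order of genes. For the step without irradiation the lines differed by -0.37, -0.21, -0.30 and 0.01, again in that order. For the step and for the response alike, at either dose or time, limma called 0% of all genes. The counts at an unadjusted p below 0.05 were 628 genes for the step at 2 Gy, 619 for that at 0 Gy, 461 for the response at 4 h and 560 for that at 24 h.

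The other 5 members were read at or below the edge of detection in both lines. MBD3L1, the distant relative, read 2.43, 2.73 and 3.14 (lowest, median and highest of 12 arrays) in parental cells and 2.40, 2.75 and 3.35 in the knockout line. ZSCAN4 read 2.16, 2.43 and 2.73 against 2.17, 2.42 and 2.63. TRIM43 read 2.59, 2.94 and 3.13 against 2.73, 2.84 and 3.12. KHDC1L gave 2.52, 2.94 and 3.17 against 2.56, 2.79 and 3.24. For these 4 genes 0 of 24 arrays were above background, so no fold between groups is given, and over the 12 arrays of each line their ranges overlapped. Within single conditions, KHDC1L at 24 h after 2 Gy did not overlap, at 2.88 to 3.07 in parental and 2.56 to 2.71 in knockout arrays, all below background. An array reading at background does not show that a gene was off.

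LEUTX lay at the edge of detection. It read 3.35, 3.78 and 4.25 in parental cells and 3.32, 3.73 and 4.12 in the knockout line, and it was above background on 9 and 8 of 12 arrays. Its group means ran from 3.51 ± 0.24 in parental cells at 24 h after 2 Gy to 3.99 ± 0.11 in knockout cells in the same condition, where 1 and 3 of 3 arrays were above background. The line differences were -0.28, -0.06, -0.17 and 0.48 in the order of groups used above, with an SE of 0.18. In the last of these conditions the lines did not overlap, at 3.35 to 3.78 in parental and 3.90 to 4.12 in knockout arrays. It was called in none of the comparisons of dose, time or response.

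DUX4 itself, which is not a member, was above background on 24 of 24 arrays. Its median was 5.67 in parental cells, where the lowest array read 5.21, and 5.52 in the knockout line, where the highest read 5.77. The differences between the lines were -0.14, -0.22, -0.36 and -0.06 (SE 0.17), and none was called (limma adjusted p = 0.74, 0.52, 0.21 and 0.91). DUX4 lies in a repeat with many copies, so its probe set is uncertain as a measure of the gene.

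**Figure D3:**
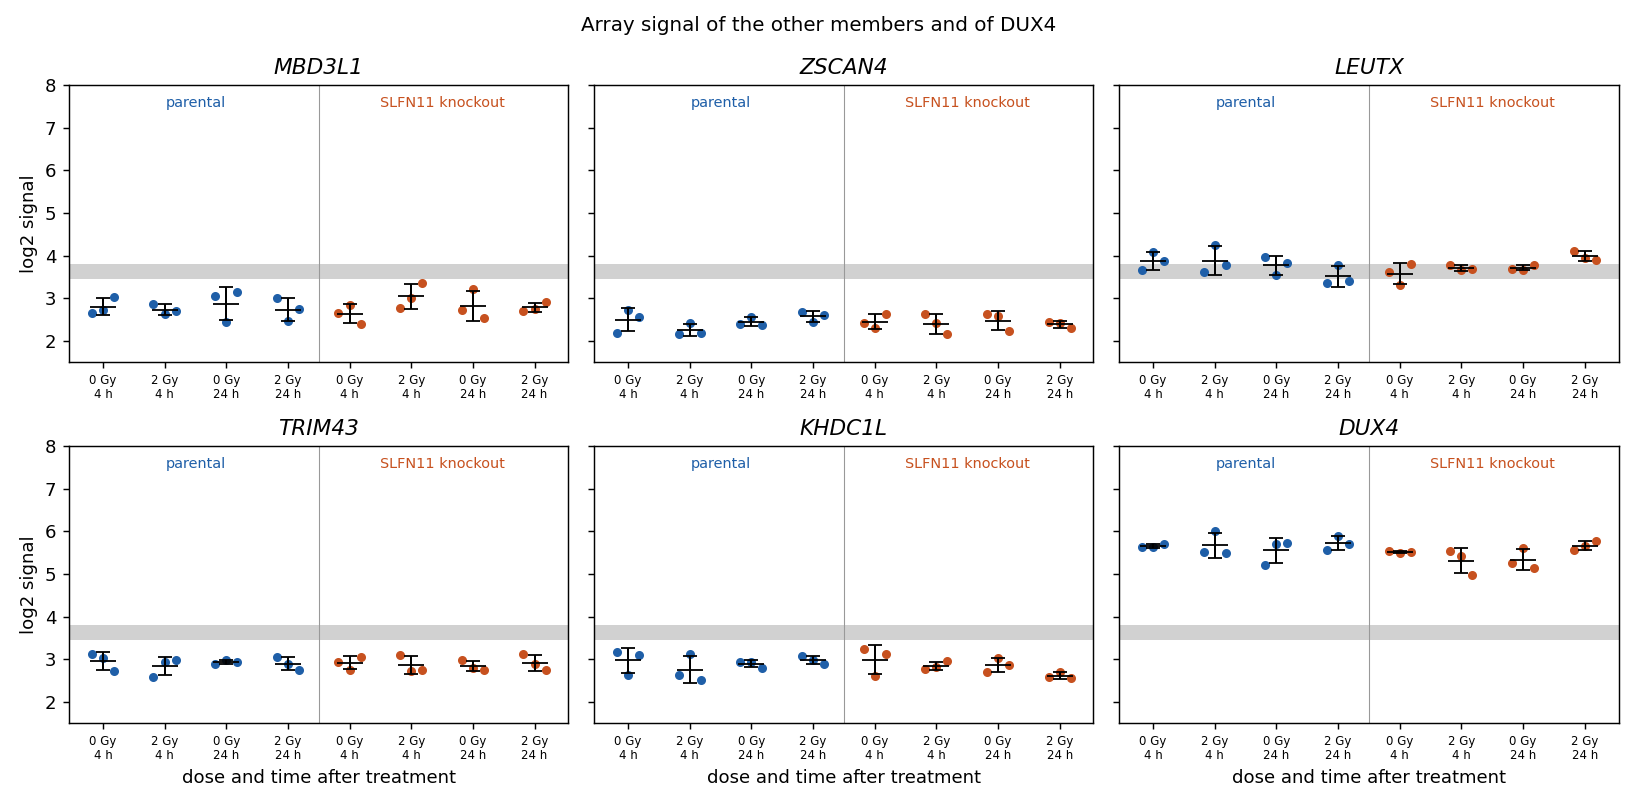
Log2 array signal (vertical axis) of MBD3L1, ZSCAN4, LEUTX, TRIM43, KHDC1L and DUX4 in the 8 groups, with single arrays as points, mean ± SD of 3 arrays as bars and the background levels of 3.46 to 3.81 as a grey band. MBD3L1, ZSCAN4, TRIM43 and KHDC1L lie below the band on all 24 arrays, LEUTX on or around it and DUX4 above it. Taken over all arrays of each line, the lines overlap in every panel.

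The cluster's line difference was set beside lists of related genes, which are described by their counts. Of 65 other DUX4 targets and cleavage-stage genes, 52 had a value and 29 of these were never above background. In the order 0 Gy at 4 h, 0 Gy at 24 h, 2 Gy at 4 h and 2 Gy at 24 h, 0, 0, 1 and 0 were called higher and 1, 0, 1 and 2 lower. The list's median differences were -0.03, -0.03, -0.07 and -0.02, beside -0.02, 0.00, -0.02 and -0.01 over all genes. None of the 52 was called in all 4 comparisons, while 626 genes (3.54%) were called higher and 502 (2.84%) lower in all 4.

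ZNF296, a zinc-finger gene on that list, fell in the knockout line by 0.72 at 4 h (SE 0.20, limma adjusted p = 0.014) and 0.79 at 24 h (limma adjusted p = 0.0066) after 2 Gy. The first call was lost without any of 3 arrays (adjusted p up to 0.069; parental replicates 1 and 2, knockout replicate 2) and the second without any of 2 (up to 0.057; replicate 1 of either line). SNAI1, a repressor of epithelial genes, fell by 0.61 at 24 h after 2 Gy (SE 0.19, limma adjusted p = 0.027), and this call was lost without any of 4 of the 6 arrays (up to 0.17; parental replicates 1 and 3, knockout replicates 1 and 2). PRAMEF18 and ZSCAN5B were each called in 1 comparison but were never above background, so their differences are not given.

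Among known repressors of DUX4 and its repeat, 17 of 18 had a value, and 2 were called higher and 1 lower in each of the 4 comparisons, or 11.8% and 5.88% in all 4, beside 3.54% and 2.84% of all genes. With so few genes, 1 gene more or less moves these shares widely. SIRT1, a deacetylase, was higher in the knockout line by 0.41, 0.33, 0.46 and 0.36 (SE 0.09), and HMGB2, a chromatin protein, by 0.34, 0.29, 0.48 and 0.32 (SE 0.10). DNMT3A, a DNA methyltransferase, fell by 0.43, 0.33, 0.47 and 0.52 (SE 0.09). SMCHD1, which helps silence the D4Z4 repeat, differed by -0.18, 0.05, -0.06 and -0.01 and was not called. The list's medians of 0.00 to 0.04 lay near those of all genes. Leaving out single arrays took the number called higher in all 4 comparisons to between 0 and 2, with at least 1 call lost for 16 of the 24 arrays; HMGB2 at 0 Gy and 24 h was lost without any of the 6 arrays compared (limma adjusted p up to 0.21). Without the intensity trend, HMGB2 passed at 4 h after 2 Gy and lost its other 3 calls (limma adjusted p = 0.079, 0.14 and 0.096), and SIRT1 lost that at 0 Gy and 24 h (0.054). With all probe sets tested HMGB2 lost the call at 0 Gy and 24 h (0.051), and without both narrow arrays that at 24 h after 2 Gy (0.12). DNMT3A kept its call at 3 of the conditions without any array, and lost that at 0 Gy and 24 h without parental replicate 1 or knockout replicate 3 (limma adjusted p up to 0.12).

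The NuRD complex, to which MBD3L proteins can bind, had 14 of 15 subunits with a value. Of these, 0, 1, 2 and 2 were called lower and 0 higher, beside the shares of all genes given above. The genes, named after their values were seen, were HDAC1 (-0.35 at 0 Gy and 24 h), MTA1 (-0.35 at 4 h and -0.33 at 24 h after 2 Gy), CDK2AP1 (-0.48 at 4 h after 2 Gy) and HDAC2 (-0.24 at 24 h after 2 Gy). Each of these calls was lost on leaving out at least 1 of the 6 arrays compared, with 1 such array for CDK2AP1 (knockout replicate 1 at 4 h after 2 Gy, -0.32, limma adjusted p = 0.071), 2 for HDAC1 and 4 for each call of MTA1 and HDAC2. With only the compared arrays in the fit MTA1 lost both calls (limma adjusted p = 0.10 and 0.084), and it lost the first without both narrow arrays (0.14). Without the intensity trend and with median centring, MTA1 at 24 h (limma adjusted p = 0.057 and 0.059) and HDAC2 (0.12 and 0.051) were not called. MBD2 and MBD3, the closest relatives with a full methyl-CpG binding domain, differed by -0.11 to 0.00 and by -0.05 to 0.12, and were not called.

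Of the other genes with a methyl-CpG binding domain, 7 of 8 had a value and 1 was called lower in all 4 comparisons, or 14.3%, beside 2.84% of all genes. This was BAZ2A, a subunit of a chromatin complex that silences ribosomal DNA, at -0.45, -0.36, -0.35 and -0.36 (SE 0.10). It kept its call at 0 Gy and 4 h whichever of the 6 compared arrays was left out. Its other calls were lost without 2 arrays at 0 Gy and 24 h (parental replicate 2, knockout replicate 3; limma adjusted p up to 0.15), 1 at 4 h after 2 Gy (knockout replicate 1; 0.081) and 2 at 24 h after 2 Gy (parental replicate 2, knockout replicate 3; up to 0.14), the last also without both narrow arrays (0.080). Of 20 pluripotency and other early embryo genes 16 had a value, and 1, 0, 0 and 2 were called lower and 0 higher, beside 5.5%, 5.09%, 5.13% and 5.68% of all genes called lower. These were KLF5, a zinc-finger factor (-0.71 at 0 Gy and 4 h, -1.02 at 24 h after 2 Gy), and LIN28B, an RNA-binding protein (-0.62 at 24 h after 2 Gy), both named after their values were seen. KLF5 at 24 h after 2 Gy kept its call without any single array, while 4 arrays ended the other call of KLF5 and 3 that of LIN28B. That other call of KLF5 was also lost without the intensity trend, with array weights, with median centring and with all probe sets tested (limma adjusted p = 0.070, 0.065, 0.055 and 0.050).

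The genes on either side of the cluster showed no line difference of its size. Of 20 measured neighbours, 10 on each side in RefSeq order, 1, 2, 2 and 1 were called higher in the knockout line and 0, 0, 1 and 0 lower, against the shares of all genes given above. The nearest were ADGRE1, a receptor gene that was never above background, ZNF557, a zinc-finger gene (-0.30, 0.27, 0.20 and -0.31), and INSR, the insulin receptor (0.37, 0.54, 0.23 and 0.31), none of which was called. ARHGEF18, a guanine nucleotide exchange factor, was called higher in all 4 comparisons, at 0.43, 0.41, 0.43 and 0.39 (SE 0.12). Leaving out single arrays ended its call in each comparison, for 4, 4, 2 and 4 of the 6 arrays compared (limma adjusted p up to 0.16). It was also lost at both 24 h comparisons without the intensity trend (limma adjusted p = 0.050 and 0.064) and at both 2 Gy comparisons without both narrow arrays (0.10 and 0.13). The others, named after their values were seen, were TRIP10, an adaptor of the actin cytoskeleton, called higher at 0 Gy and 24 h (0.47) and at 4 h after 2 Gy (0.37), and DENND1C, a regulator of Rab proteins, called lower at 4 h after 2 Gy (-0.62). Each of these calls was lost without 1 to 4 of the 6 arrays compared (limma adjusted p up to 0.056 and 0.20 for TRIP10 and 0.30 for DENND1C). At 4 h after 2 Gy, TRIP10 was also not called without the intensity trend (limma adjusted p = 0.059), nor DENND1C with median centring (0.058), and neither was called with only the compared arrays (0.079 and 0.071) or without both narrow arrays (0.18 and 0.25). The medians of the 20 neighbours were 0.00, 0.16, -0.01 and 0.11.

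**Figure D4:**
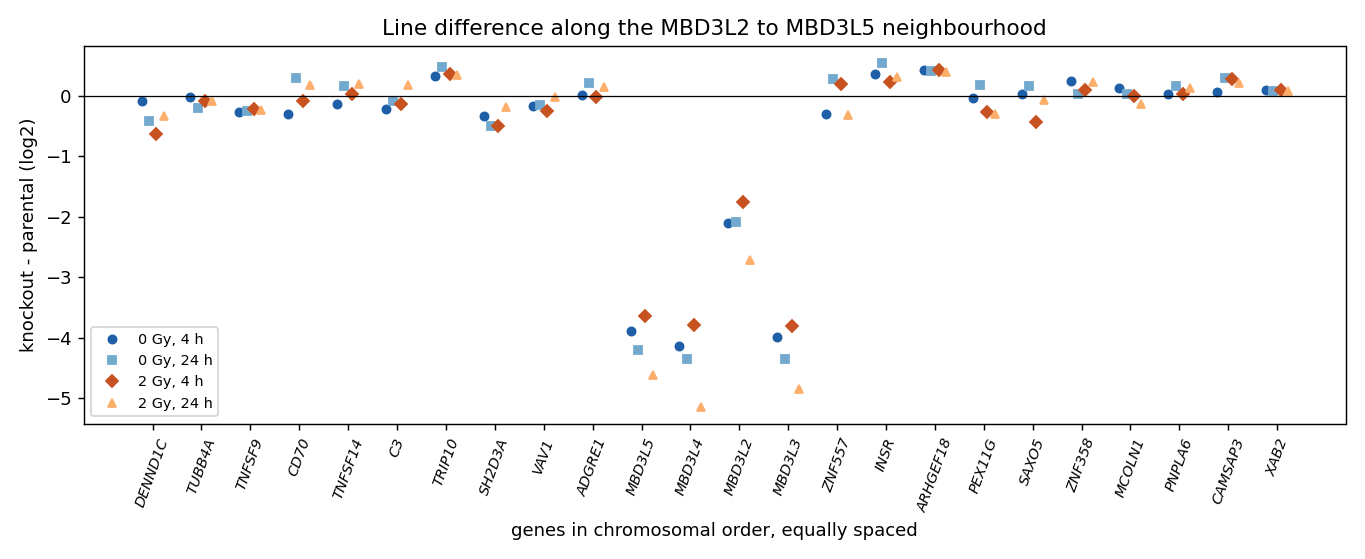
Knockout minus parental difference on the log2 scale (vertical axis) for the measured genes around the MBD3L cluster, equally spaced in chromosomal order, with 1 symbol per dose and time. MBD3L3, MBD3L4 and MBD3L5 lie between -3.63 and -5.13 and MBD3L2 between -1.76 and -2.71, while the nearest genes on either side, ADGRE1 and ZNF557, lie between -0.31 and 0.27.

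Genes with a profile most like the mean of MBD3L3, MBD3L4 and MBD3L5 over the 24 arrays were PTPRG (r = 0.991), CYTL1 (0.988), PI15 (0.988), SLC23A2 (0.988) and PPP1R1A (0.986), the last also one of the Ewing sarcoma markers. The 24 points form 2 clusters, one per line, so these values mainly order genes by how cleanly they separate the lines, and 80 of 17678 genes exceeded 0.95. Within parental arrays the same genes correlated at 0.54, 0.54, 0.87, 0.79 and 0.55, and within knockout arrays at 0.46, -0.26, 0.41, -0.09 and 0.43. PTPRG, a receptor-type tyrosine phosphatase gene, differed between the lines by -3.50, -3.27, -3.30 and -3.46. MBD3L2 reached 0.975 on the same measure, with 0.86 in parental and 0.13 in knockout arrays.

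On deviations from group means, which remove the line difference, the most similar genes were EQTN (r = 0.760), FBN3 (0.757), HTATIP2 (0.752), SATB1 (0.738) and CTTNBP2NL (0.738). Within each line the correlations were taken on the signals themselves. They keep differences of dose and time and are a different measure from the r above. On that measure SATB1, a chromatin organizer, was the one of these 5 with a like value within both lines, at 0.72 in parental and 0.76 in knockout arrays. CTTNBP2NL was also positive within both lines, at 0.88 in parental and 0.39 in knockout arrays. EQTN, FBN3 and HTATIP2 were at -0.10, -0.16 and -0.25 in parental arrays. All these points share arrays and normalization, and knockout values of the cluster lie near background.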

How the data were processed

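The deposited table holds log2 signals per probe set from 24 arrays. Per the submitters' processing notes, the authors made them with RMA and Affymetrix Expression Console 1.1. The set of arrays normalized jointly is not named in those notes. Of 24351 probe sets, 2903 are controls. Where 20 symbols had more than 1 probe set, the brightest was kept. In R 4.3.3, limma 3.58.1 (lmFit with 1 mean per group over all 24 arrays, eBayes with an intensity trend) gave the differences, with Benjamini-Hochberg adjustment over 17687 genes and calls at adjusted p below 0.05. The procedure was run on simulated data with independent normal noise for each gene and array. Such data hold no deviations shared between arrays and no signal floor, so they do not test it under those conditions. The members and lists were chosen with earlier results of these data known. Genes were named where a list's gene was called in all 4 line comparisons, where a DUX4-list gene was called in any, and by the 5 highest correlations on each measure. Promoters were taken from RefSeq with Biopython 1.88 used to align them. TRIM43 had no promoter entry and was not searched for the core. Same-numbered arrays deviated together in every pair for line differences at 0 Gy and 4 h and at 2 Gy and 24 h. They also did so for irradiation in knockout cells. All r in these comparisons, 0.103 to 0.269, passed the low cut-off set for counting a pairing. There the replicate number may be a pairing, which rests on the data only. The main fit held no replicate term, and a replicate block was run as an alternative. For 24 h against 4 h at 2 Gy in parental cells, where members were called, r ran from 0.0902 to 0.475. That comparison was not counted as paired, because its lowest r fell just short of the cut-off. Every r was also positive, with the lowest short of the cut-off, for line differences at 0 Gy and 24 h and at 2 Gy and 4 h. The same held for irradiation in parental cells at 4 h and for time in knockout cells without irradiation.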

Additional observations from a re-analysis of the deposited data

How the results depend on the processing

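Of the 16 line differences of MBD3L2 to MBD3L5, none reversed or moved by more than the SD pooled over the 2 groups compared, under any alternative run (no intensity trend, array weights, a replicate block, only compared arrays, only genes above background on 3 arrays, median centring, all probe sets, single arrays left out, and, chosen after seeing the data, both narrow parental arrays left out). With 3 arrays per group, leaving out 1 array of a group cannot shift a difference beyond that pooled SD, so that check could not fail. The alternatives for trend, replicate block, compared arrays, background and all probe sets leave a difference of group means unchanged. Only array weights and median centring could have exceeded the pooled SD. The largest shift was 0.28, and 5 of the 16 moved further than the residual SD that limma fits over all groups. Members called for time at 2 Gy in parental cells numbered 3, 1 without both narrow arrays and 0 to 3 without single arrays. The lines' difference in that step is itself a difference of line differences, which chose the genes, so no calls of members are given for it. DUX4 repressors called higher in all 4 line comparisons numbered 2, but 0 without a trend, 1 with all probe sets, 1 without both narrow arrays and 0 to 2 without single arrays; those lower numbered 1, and 0 to 1 without single arrays. For the other methyl-CpG genes the count of 1 became 0 without both narrow arrays and 0 to 1 without single arrays. Neighbours called higher numbered 1, but 0 without a trend, 2 with the replicate block, 2 with median centring, 0 without both narrow arrays and 0 to 1 without single arrays. The cause was not tested. In the fit with the replicate block, no other count given here moved by over 1.5 times. Of the single genes followed, MBD3L2 (time at 2 Gy, parental cells) alone changed call there, the lines' difference in the step left aside. Genes of the lists and neighbours were followed only in comparisons where the main fit called them, so calls gained elsewhere would not show. Signal near background limits what can be seen for LEUTX and for MBD3L4 in knockout cells.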
